A study of Homo sapiens with 6 samples.

Results

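The genes described here encode the subunits of the proteasome, with the chaperones and activators that share its gene names. They are the genes of a deposited RNA-seq count table whose symbol is PSMA, PSMB, PSMC, PSMD or PSME followed only by a number. The rule left out 1 such symbol, and 42 of the 61541 genes in the table remained. They comprise 8 core alpha, 10 core beta, 9 base, 8 lid and 4 activator genes, and 3 genes (PSMD5, PSMD9 and PSMD10) whose products help to assemble the base and are absent from the finished particle. RNA was sequenced from 2 established human breast cancer lines, both untreated and both kept in high-glucose DMEM with 10% serum. One was the parental line MDA-MB-231, known as triple-negative (3 libraries). The other was MDA-MB-231-D3H2LN, called MDA231-LN (3 libraries), a subline known to carry luciferase and to derive from a metastasis in a mouse lymph node. Each kind of cell is a single line, so lymph node origin, the luciferase and growth in mice cannot be told apart.

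The libraries held 16461578 to 19171017 counted fragments, and the first principal component separated the lines with 86.5% of the variance. Both lines had abundant markers known for MDA-MB-231. The 6 genes VIM, CD44, EGFR, AXL, CAV1 and MSN lay between 328 and 1993 CPM in every line mean (CPM, counts brought to a common library size after TMM scaling). The luminal marker genes PGR and CDH1 lay at or below 0.42 CPM and GATA3, EPCAM and ERBB2 between 13 and 90.4 CPM. ESR1 (0.164 to 0.951 CPM, 5.28-fold) and FOXA1 (0.179 to 2.63 CPM, 14.3-fold) were low but higher in MDA231-LN. Of 7 markers of leukocytes, endothelium and liver, PECAM1 was at 9.52 and 8.59 CPM and the other 6 at or below 0.548 CPM. Nothing in the labels ties the replicates to separate cultures. The p-values therefore reflect only how far these samples scatter, and that scatter may be technical.

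The proteasome degrades proteins tagged with ubiquitin. Its barrel-shaped core stacks rings of alpha subunits, which form the gate, around rings of beta subunits, of which those encoded by PSMB5, PSMB6 and PSMB7 carry the peptide-cutting sites. A regulatory particle caps the barrel: its base holds the PSMC ATPases that unfold substrates, and its lid holds PSMD14, which removes ubiquitin chains. Cells exposed to interferon gamma exchange catalytic subunits for inducible ones such as PSMB8 and PSMB10 and make more of the PA28 activator encoded by PSME1 and PSME2. Cells short of proteasome activity raise the subunit genes together through the transcription factor NRF1, the product of NFE2L1.

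Of the 42 genes, 37 had enough counts to be tested. Reads touching more than 1 annotated gene were not counted, and for PSMA2, PSMA3, PSMA6 and PSMD9 between 97.2% and 100% of the principal transcript lies inside another gene. These 4 genes had 0 to 2 counts over all 6 libraries and could not be measured. PSMB11, which encodes a beta subunit of thymic epithelium, also had 0 counts but shares no base with another gene. Counting 0 fragments allows a PSMB11 level of up to 0.059 CPM in parental cells and up to 0.0526 CPM in MDA231-LN, the level of 3 counts summed over a line. Among the tested genes, PSMA1, PSMC1, PSMC2 and PSMD7 have 59.9% to 84.3% of the principal transcript inside another gene, so their counts come from the remainder and from introns. The other 33 tested genes are the better measured ones. Such limits cover counting error alone, because no molecular identifiers were used to tell independent molecules apart.

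The subunit genes did not move as a block between the lines. A gene is said to have risen or fallen where it was higher or lower in MDA231-LN at a Benjamini-Hochberg adjusted p under 0.05 in the edgeR quasi-likelihood test over all 14176 tested genes. By that rule 11 of the 37 members rose, 13 fell and 13 had no call, while 31.6% of all tested genes rose and 31.2% fell. The 24 called members make up 64.9% of the 37, against 62.8% of all tested genes, so the share called was near the background. The median log2 fold change was -0.01 for the members and 0.02 for all tested genes. With upper-quartile scaling, which raises the median of all tested genes to 0.13, 18 members rose and 9 fell. In bulk RNA, less of a transcript per cell and fewer cells that make it cannot be told apart.

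The differences were mostly small. Of the 37 members 7 (18.9%) passed at 1.5-fold or more, against 35.7% of all tested genes. Of these 2 were higher and 5 lower, beside 19.6% and 16.2% of all tested genes. Only 2 passed at 2-fold or more, against 20.6%. Both of the latter, PSMA1 and PSMC2, have most of their transcript inside another gene. Abundant genes are the closer comparison, since 32 members had a mean of at least 40 CPM. Of these 20 (62.5%) were called, against 72.4% of the 5380 tested genes at that level. They were 10 risers and 10 fallers, where 28.3% and 44.1% of such genes rose and fell. At that level 4 (12.5%) passed at 1.5-fold or more, against 25%. Their median absolute log2 fold change was 0.21, against 0.31 for all genes at that level. In 22 members all 3 libraries of one line lay above all 3 of the other, or 59.5% of the tested members, against 66.6% of all tested genes. At a mean of at least 40 CPM this held for 19 of 32 members (59.4%), against 74.6% of such genes.

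**Figure D1:**
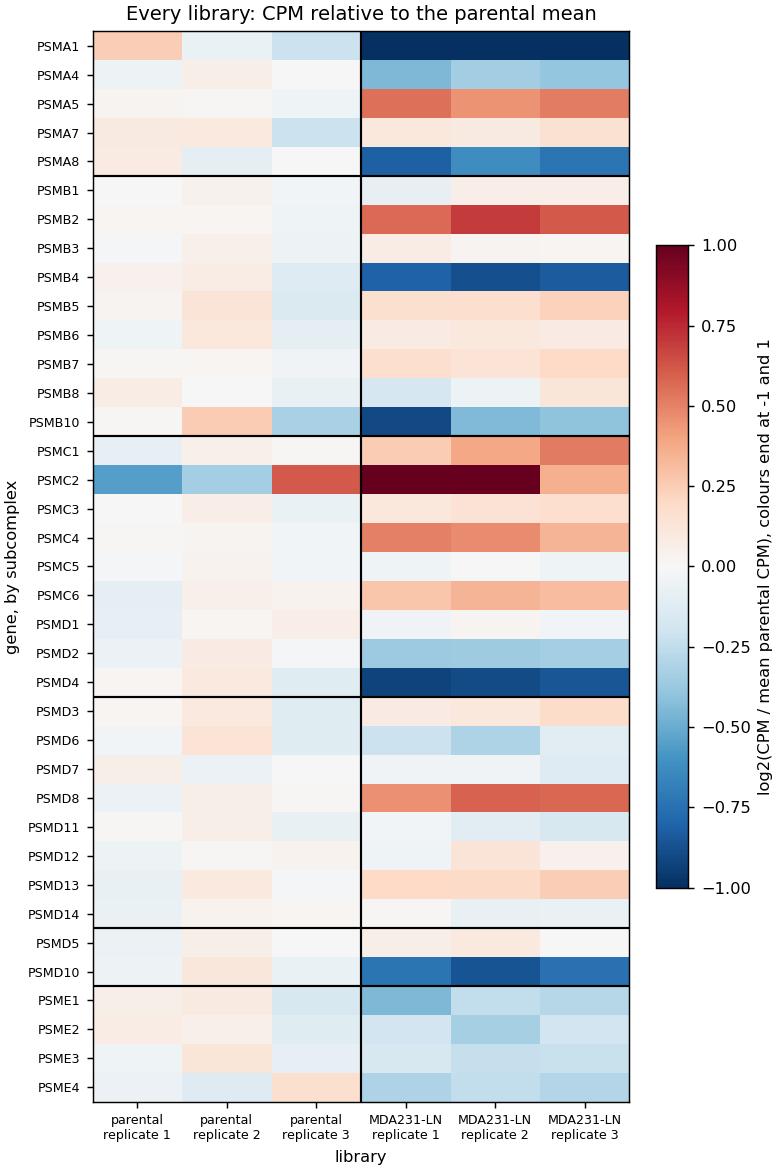
Heat map of the 37 tested proteasome genes (rows, by subcomplex, black lines between the groups) in all 6 libraries (columns), coloured by log2 of the CPM over the mean parental CPM. The MDA231-LN columns hold both red rows, such as PSMB2 and PSMD8, and blue rows, such as PSMB4 and PSMD4, and PSMA1 lies beyond the blue end of the colour scale in all 3.

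The libraries of a line were not equal in these genes. Parental replicate 3 was the lowest of its line in 23 of the 37 members (62.2%), against 36.1% of all tested genes, and parental replicate 2 was the highest in 26. MDA231-LN replicate 1 was the lowest of its line in 19 (51.4%), against 33.5% of all tested genes. Without parental replicate 3, 9 members rose and 14 fell, and without parental replicate 2, 13 rose and 11 fell. The part of these libraries in the small differences was not tested beyond that.

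Of the 8 alpha genes, which encode the outer rings, 5 were tested. PSMA5 rose and PSMA1, PSMA4 and PSMA8 fell. PSMA5, on chromosome 1 from 109399042 to 109426448 of GRCh38, had 111, 110 and 106 CPM in the parental libraries and 160, 149 and 155 CPM in MDA231-LN. Every MDA231-LN library lay above every parental one, a 1.42-fold difference (log2 fold change 0.51 ± 0.06, SE; adjusted p = 2.8e-08, edgeR). PSMA4, on chromosome 15 from 78540405 to 78552417, went the other way. It had 224, 241 and 231 CPM in the parental libraries and 170, 182 and 177 CPM in MDA231-LN, a fall of 1.32-fold with no overlap (log2 fold change -0.40 ± 0.06, SE; adjusted p = 7.0e-07, edgeR). PSMA7 had 350 ± 41.8 and 379 ± 7.54 CPM (SD, n = 3), and its wide parental spread came from replicate 3, at 301 CPM against 372 and 375. It had no call (adjusted p = 0.115, edgeR), but was called higher without parental replicate 2 and with upper-quartile scaling. Its adjusted p was 0.00268 to 0.834 over 13 refits, which used other scalings, filters or tools, the replicate number as a block, or 1 library less.

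PSMA8 encodes a testis-specific alpha subunit that takes the place of PSMA7. It was low in both lines, with 9.99, 8.87 and 9.47 CPM in the parental libraries and 5.38, 6.15 and 5.71 CPM in MDA231-LN. The lines did not overlap, and it fell 1.65-fold (log2 fold change -0.72 ± 0.16, SE; adjusted p = 0.000449, edgeR). Per kilobase of transcript it made up 1.49 ± 0.21% of PSMA7 and PSMA8 together in the parental line and 0.83 ± 0.0634% in MDA231-LN (SD, n = 3). The length chosen affects this share. In the parental line PSMA8 and PSMA7 were at 5.24 and 351 CPM per kilobase of principal transcript, but at 4.99 and 200 with all annotated exons. PSMA1 had the largest fold change of all members, from 10.8, 8.68 and 7.87 CPM to 2.92, 3.16 and 3.70 CPM, a fall of 2.79-fold. Since 76.6% of its principal transcript lies inside a gene listed only as ENSG00000256206, these 461 and 186 counts describe the unshared remainder of its locus and not its messenger RNA as a whole.

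Of the 10 beta genes 9 were tested, of which PSMB2, PSMB5 and PSMB7 rose and PSMB4 and PSMB10 fell. PSMB2 and PSMB4 encode structural subunits and moved furthest apart. PSMB2, on chromosome 1 from 35599541 to 35641526, had 199, 199 and 190 CPM in the parental libraries and 290, 319 and 300 CPM in MDA231-LN. The groups did not overlap, and the difference was 1.55-fold (log2 fold change 0.63 ± 0.06, SE; adjusted p = 1.9e-10, edgeR). PSMB4, on the other arm of the same chromosome from 151399560 to 151401937, had 294, 300 and 260 CPM in the parental libraries and 163, 155 and 160 CPM in MDA231-LN. It fell 1.78-fold, again without overlap (log2 fold change -0.83 ± 0.06, SE; adjusted p = 2.9e-12, edgeR).

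The genes of the 3 catalytic subunits stayed close to their parental levels. PSMB5, whose product cuts after hydrophobic residues, had 178, 191 and 158 CPM in the parental libraries and 196, 197 and 205 CPM in MDA231-LN, and rose 1.14-fold (adjusted p = 0.0123, edgeR). The lines were narrowly apart. Its call was lost without parental replicate 3 or MDA231-LN replicate 3, with an adjusted p of 0.000156 to 0.111 over the 13 refits. PSMB7, whose product cuts after basic residues, rose 1.12-fold from 188, 189 and 182 CPM to 209, 205 and 213 CPM (adjusted p = 0.00906, edgeR). PSMB6, whose product cuts after acidic residues, had 140 ± 10.4 and 149 ± 1.79 CPM and no call, but was called higher without parental replicate 2 and with upper-quartile scaling. The structural genes PSMB1 (203 ± 5.06 and 205 ± 11.4 CPM) and PSMB3 (139 ± 5.37 and 143 ± 2.6 CPM) had no call either, and their libraries overlapped. Both were called higher with upper-quartile scaling.

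The inducible beta genes were low beside the genes of the constitutive subunits they replace. PSMB8, which replaces PSMB5, had 34.2, 32.4 and 30.9 CPM in the parental libraries and 29, 31.3 and 35.4 CPM in MDA231-LN. The groups overlapped and it had no call (log2 fold change -0.03 ± 0.09, SE; adjusted p = 0.811, edgeR). Per kilobase of transcript it made up 17.7 ± 1.12% of PSMB8 and PSMB5 together in the parental line and 15.5 ± 0.999% in MDA231-LN (SD, n = 3). This share depends on the length chosen. In the parental line PSMB8 and PSMB5 were at 28.9 and 135 CPM per kilobase of principal transcript, but at 10.9 and 99.3 with all annotated exons. PSMB10, which replaces PSMB7, was measured on 246 and 188 counts, with 4.94, 5.83 and 3.91 CPM in the parental libraries and 2.61, 3.6 and 3.7 CPM in MDA231-LN. It fell 1.47-fold at an adjusted p of 0.0428 (edgeR). That call was lost in 9 of the 13 refits, among them DESeq2, limma-voom and upper-quartile scaling, with an adjusted p of 0.015 to 0.177, and 45.3% of its principal transcript lies inside another gene.

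The stretches before the starts of PSMB2 and PSMB4 are shown because these genes had the highest and the lowest log2 fold change among the better measured members with a promoter at hand, and that of PSMB3 because this gene had no call while holding the letters TGACNNNGC. Those letters are the core of the antioxidant response element, to which NRF1 and NRF2 bind. The sequences are RefSeq's for GRCh38.p14, run 5′ to 3′ on the strand of the gene and stop where the counted gene begins. PSMB2 lies on the minus strand (chr1:35641527-35641776), PSMB4 on the plus strand (chr1:151399323-151399559) and PSMB3 on the plus strand (chr17:38752491-38752740), and capitals mark the match.
PSMB2: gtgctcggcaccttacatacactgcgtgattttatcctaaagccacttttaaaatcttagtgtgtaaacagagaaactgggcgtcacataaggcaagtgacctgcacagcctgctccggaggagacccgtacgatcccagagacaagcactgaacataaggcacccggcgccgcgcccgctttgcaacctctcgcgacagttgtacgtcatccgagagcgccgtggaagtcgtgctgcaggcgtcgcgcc
PSMB4: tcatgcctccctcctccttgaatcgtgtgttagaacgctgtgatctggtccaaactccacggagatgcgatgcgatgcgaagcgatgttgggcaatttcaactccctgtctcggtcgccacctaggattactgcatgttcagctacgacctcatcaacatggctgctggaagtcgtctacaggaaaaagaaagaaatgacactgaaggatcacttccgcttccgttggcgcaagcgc
PSMB3: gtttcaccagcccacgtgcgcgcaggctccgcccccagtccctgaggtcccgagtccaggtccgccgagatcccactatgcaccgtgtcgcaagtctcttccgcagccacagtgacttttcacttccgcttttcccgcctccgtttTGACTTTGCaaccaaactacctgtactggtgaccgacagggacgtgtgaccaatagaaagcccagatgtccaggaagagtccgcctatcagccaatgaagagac

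The letters were searched on both strands in the 250 bases before each RefSeq start, which were at hand for 37 of the 42 genes. TGACNNNGC was found in 8 of these 37 (21.6%) and in 11% of all 27305 promoters. CCAAT, the box bound by NF-Y, was found in 16 (43.2%) against 33% of all promoters, and GGGCGG, the box bound by SP1, in 22 (59.5%) against 42.3%. The 3 motifs can share bases, and overlaps between their matches were not counted. None of the 3 was found before PSMB2 or PSMB4. Of the 7 tested members with TGACNNNGC, 0 rose, 3 fell (PSME1, PSME2 and PSME4) and 4 had no call (PSMB3, PSMD3, PSMD5 and PSMD12). Of the 25 tested members whose window lacked it, 10 rose, 9 fell and 6 had no call. A match is a description of letters, and these counts were not tested.

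The base had the most risers: of its 9 genes PSMC1, PSMC2, PSMC3, PSMC4 and PSMC6 rose, PSMD2 and PSMD4 fell, and PSMC5 and PSMD1 had no call. All 5 risers encode ATPases of the unfolding ring, while 31.6% of all tested genes rose. Set against the genes around them, as described below, none of the 5 passed. PSMC4 (-0.14, adjusted p = 0.0506, t distribution) and PSMC1 (-0.02, 0.834) lay below their surroundings. PSMC2 (0.57, 0.297), PSMC3 (0.04, 0.554) and PSMC6 (0.09, 0.182) lay above theirs. PSMC4, on chromosome 19 from 39971165 to 39981764, had 123, 124 and 120 CPM in the parental libraries and 173, 169 and 154 CPM in MDA231-LN. It rose 1.35-fold with no overlap (log2 fold change 0.43 ± 0.06, SE; adjusted p = 5.5e-07, edgeR). PSMC6, on chromosome 14, rose 1.24-fold from 150, 166 and 164 CPM to 194, 202 and 198 CPM (adjusted p = 4.2e-05, edgeR). PSMC3 differed by only 1.1-fold (282, 295 and 270 CPM against 304, 312 and 316 CPM), and its call was lost when any of parental replicates 1 and 3 or MDA231-LN replicates 2 and 3 was left out (adjusted p 0.000138 to 0.106 over the 13 refits).

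The other ATPase genes are less well measured. PSMC1 rose 1.32-fold, from 104, 114 and 111 CPM to 131, 144 and 158 CPM. Of its principal transcript 82.1% lies opposite NRDE2, on the other strand, and 13 pseudogenes carry its name. PSMC2 rested on 42 counts in the parental line and 95 in MDA231-LN, with overlapping libraries (0.548, 0.634 and 1.23 CPM against 1.90, 2.11 and 1.03 CPM). Its call was lost in 7 of the 13 refits, with an adjusted p of 0.0161 to 0.193. PSMC5 had 197 ± 4.95 and 193 ± 3.15 CPM (SD, n = 3) and no call.

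The 2 base genes that fell encode parts that meet ubiquitin and not the ATPase ring. PSMD4, whose product (Rpn10) is a ubiquitin receptor, is on chromosome 1 from 151254709 to 151267479. It had 235, 248 and 213 CPM in the parental libraries and 122, 125 and 128 CPM in MDA231-LN. This was the largest fall among the better measured members, 1.86-fold and without overlap (log2 fold change -0.89 ± 0.06, SE; adjusted p = 1.2e-12, edgeR). PSMD2, whose product (Rpn1) is a docking scaffold for ubiquitin shuttles, had the most counts of all members. It fell 1.28-fold, from 956, 1054 and 985 CPM to 777, 778 and 790 CPM (adjusted p = 9.7e-07, edgeR). PSMD1, the gene of the other large scaffold (Rpn2), had 242 ± 12.5 and 241 ± 5.59 CPM (SD, n = 3) and no call.

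The lid had the smallest median absolute log2 fold change of the groups, 0.11. Of its 8 genes PSMD8 and PSMD13 rose, PSMD6 fell and 5 had no call (37.5% called, against 62.8% of all tested genes). None passed at 1.5-fold or more, against 35.7% of all tested genes and 25% of those at a mean of at least 40 CPM. PSMD8, on chromosome 19 from 38374550 to 38383824, had 147, 159 and 154 CPM in the parental libraries and 210, 230 and 228 CPM in MDA231-LN. The lines did not overlap, and it rose 1.45-fold (log2 fold change 0.54 ± 0.06, SE; adjusted p = 7.6e-09, edgeR). PSMD13, on chromosome 11, rose 1.16-fold from 174, 196 and 181 CPM to 210, 209 and 217 CPM (adjusted p = 0.00252, edgeR). PSMD6 had 94.4 ± 8.56 and 81.8 ± 5.8 CPM with overlapping libraries. Its fall of 1.15-fold (adjusted p = 0.0155, edgeR) lost its call in 4 of the 13 refits, with an adjusted p of 0.00166 to 0.258.

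PSMD14, the gene of the deubiquitinating enzyme of the lid, had 129, 138 and 137 CPM in the parental libraries and 136, 128 and 129 CPM in MDA231-LN. The groups overlapped and there was no call (log2 fold change -0.04 ± 0.06, SE; adjusted p = 0.552, edgeR). PSMD7, which encodes its partner in the lid, was at 64.1 ± 2.72 and 61.4 ± 2.28 CPM, with 59.9% of its principal transcript inside another gene. The scaffold genes PSMD3 (263 ± 19.8 and 287 ± 11 CPM), PSMD11 (293 ± 13.8 and 274 ± 12.5 CPM) and PSMD12 (198 ± 6.46 and 204 ± 11.9 CPM) had no call. PSMD11 was called lower without parental replicate 3, and PSMD12 higher with upper-quartile scaling. PSMD3 was called higher in 5 of the 13 refits, with an adjusted p of 0.000725 to 0.359.

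Of the base assembly chaperone genes, PSMD10 fell and PSMD5 had no call. PSMD10 encodes gankyrin, which is also known to bind the retinoblastoma protein. It lies on chromosome X from 108084207 to 108091549 and had 54.8, 61.4 and 54.3 CPM in the parental libraries and 34.2, 31.3 and 33.9 CPM in MDA231-LN. The lines were far apart, and it fell 1.71-fold (log2 fold change -0.78 ± 0.08, SE; adjusted p = 5.1e-09, edgeR). PSMD5 was at 53.6 ± 2.14 and 55.6 ± 1.71 CPM (SD, n = 3), and was called higher with upper-quartile scaling.

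The 4 activator genes, which do not encode 1 common complex, were the only group whose members all had the same call. Each fell, by 1.15-fold to 1.25-fold, and in each the libraries of the lines did not overlap. Of all tested genes 31.2% fell, and 44.1% of those at a mean of at least 40 CPM. Set against the genes around them, as described below, PSME1 and PSME2 passed. PSME3 (-0.07, adjusted p = 0.28, t distribution) and PSME4 (0.07, 0.375) did not, and the surrounding median of PSME3 was -0.13. PSME1, which encodes PA28 alpha, had 126, 129 and 108 CPM in the parental libraries and 88.8, 102 and 99.4 CPM in MDA231-LN (log2 fold change -0.32 ± 0.07, SE; adjusted p = 0.000258, edgeR). PSME2, which encodes its partner PA28 beta and lies 8 kb away on chromosome 14, had 94.9, 93.3 and 82.9 CPM and 79.2, 71.8 and 79.2 CPM (log2 fold change -0.23 ± 0.07; adjusted p = 0.00484, edgeR). In both genes every MDA231-LN library lay below every parental one, by a margin that parental replicate 3 sets. PSME3, the gene of the nuclear activator PA28 gamma, fell from 318, 356 and 310 CPM to 293, 279 and 281 CPM (adjusted p = 0.00268, edgeR). PSME4, the gene of PA200, fell from 171, 163 and 199 CPM to 144, 150 and 145 CPM (adjusted p = 0.000436, edgeR).

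With upper-quartile scaling PSME2 and PSME3 lost their call (adjusted p = 0.124 and 0.134, edgeR), and PSME2 also without MDA231-LN replicate 2. Over the 13 refits the adjusted p ran from 0.000331 to 0.124 for PSME2 and from 0.000272 to 0.134 for PSME3. PSME1 and PSME4 were called in all 13 refits. Per kilobase of transcript PSME3 made up 61 ± 1.37% of the 4 activator genes in the parental line and 62.4 ± 1.36% in MDA231-LN (SD, n = 3), PSME1 22.3 ± 1.02% and 21.1 ± 1.59%, PSME2 12 ± 0.579% and 12 ± 0.596%, and PSME4 4.69 ± 0.777% and 4.51 ± 0.127%. The differences in these shares were no larger than about the spread between libraries. The size of each share depends on the length chosen. With all annotated exons, PSME1 lay at 68.1 and PSME3 at 63.7 CPM per kilobase in the parental line, and at 54.4 and 55.2 in MDA231-LN. For PSME2, 38.5% of the principal transcript lies inside another gene. The stretch before PSME1, on the plus strand at chr14:24135944-24136162, is shown because this gene fell while holding TGACNNNGC, in capitals, 77 bases before the RefSeq start, which lies downstream of where the counted gene and the printed stretch meet.
PSME1: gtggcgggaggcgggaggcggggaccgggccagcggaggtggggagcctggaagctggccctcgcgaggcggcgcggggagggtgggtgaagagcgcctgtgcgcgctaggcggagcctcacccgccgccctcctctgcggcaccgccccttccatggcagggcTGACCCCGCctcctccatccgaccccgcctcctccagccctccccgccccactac

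The larger member differences were mostly close to those of the genes around them on the chromosome. For each member the median log2 fold change of the other tested genes within 5 Mb was taken. PSMD4 and PSMB4 lie 140 kb apart on chromosome 1. Around PSMD4 (log2 fold change -0.89) the median was -0.92 over 153 genes, of which 122 fell and 10 rose. PSMB4 (-0.83) had a surrounding median of -0.91 over 156 genes. Around PSMB2 (0.63) the median was 0.53 over 110 genes, of which 83 rose and 7 fell. Around PSMD8 (0.54) it was 0.61 over 152 genes, of which 100 rose and 5 fell, and PSMC4, 1597 kb from PSMD8, had 0.43 beside a median of 0.57. Around PSMD10 (-0.78) it was -0.70 over 39 genes, of which 23 fell and 5 rose.

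**Figure D2:**
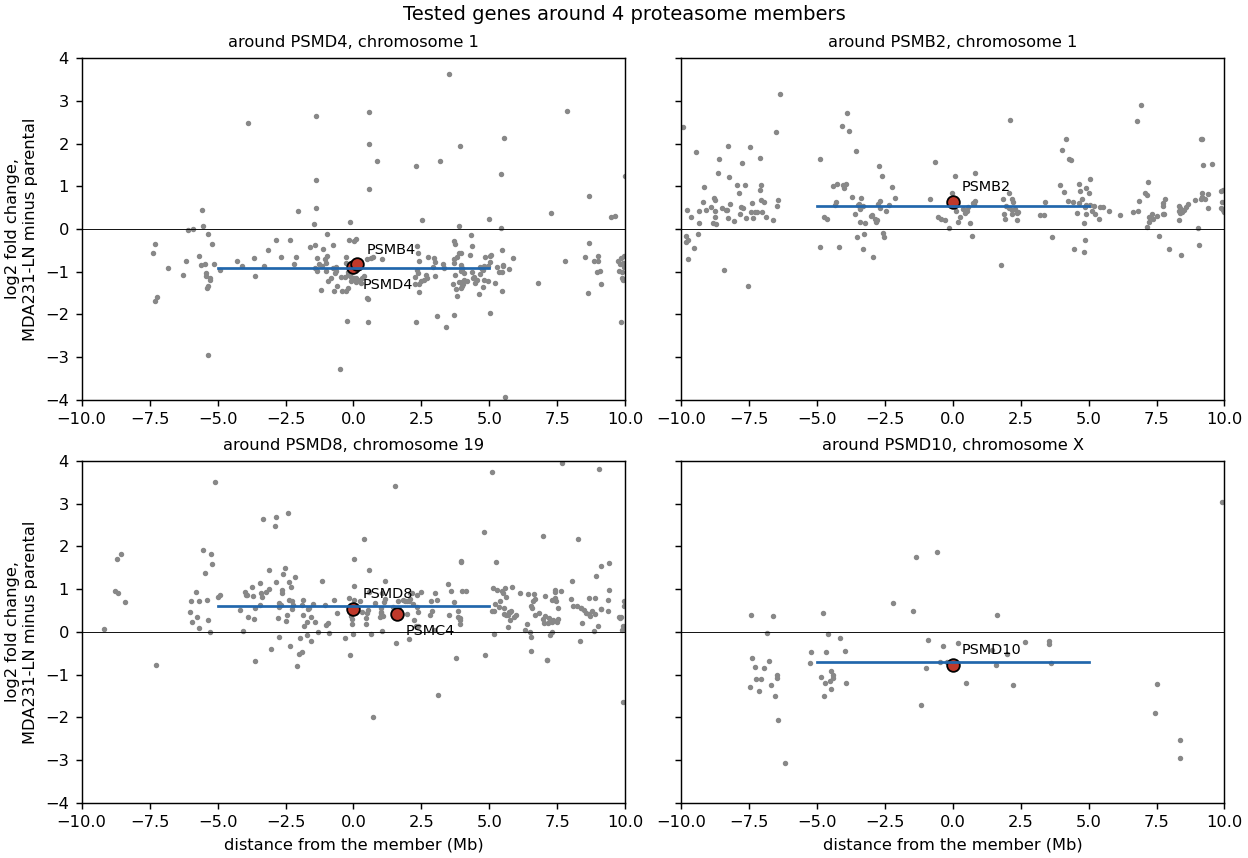
Log2 fold change (MDA231-LN minus parental) of every tested gene within 10 Mb of PSMD4, PSMB2, PSMD8 and PSMD10, against its distance from that member in Mb; red points are proteasome genes, and the blue line spans 5 Mb on each side at the median of the other genes there. The members sit near lines at -0.92, 0.53, 0.61 and -0.70; 17 points beyond the axis limits of -4 and 4 are not drawn.

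The same held for smaller differences. PSMA5 had 0.51 beside a surrounding median of 0.45, PSMA4 -0.40 beside -0.47, PSMD2 -0.35 beside -0.40, PSMC1 0.40 beside 0.41, PSMC6 0.31 beside 0.21 and PSME4 -0.28 beside -0.36. In all, 29 of the 37 members (78.4%) lay within 0.2 of their surrounding median on the log2 scale, against 48% of all tested genes at a mean of at least 40 CPM. Of the 24 called members 20 (83.3%) had the sign of their surroundings, against 76% of all called genes at that level. Over all tested members, small differences included, 24 of 37 (64.9%) had that sign, against 70.3% of all tested genes at that level. Across the 37 members Pearson's r between the log2 fold change and the surrounding median was 0.73 and Spearman's rho 0.72. Without PSMA1 Pearson's r was 0.86, and over the 33 better measured members it was also 0.86. Across all 5377 tested genes at that level with a window it was 0.55. All these values come from the same 6 libraries and 1 scaling, and members such as PSMB4 and PSMD4 share most of their window, so the points are not independent.

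**Figure D3:**
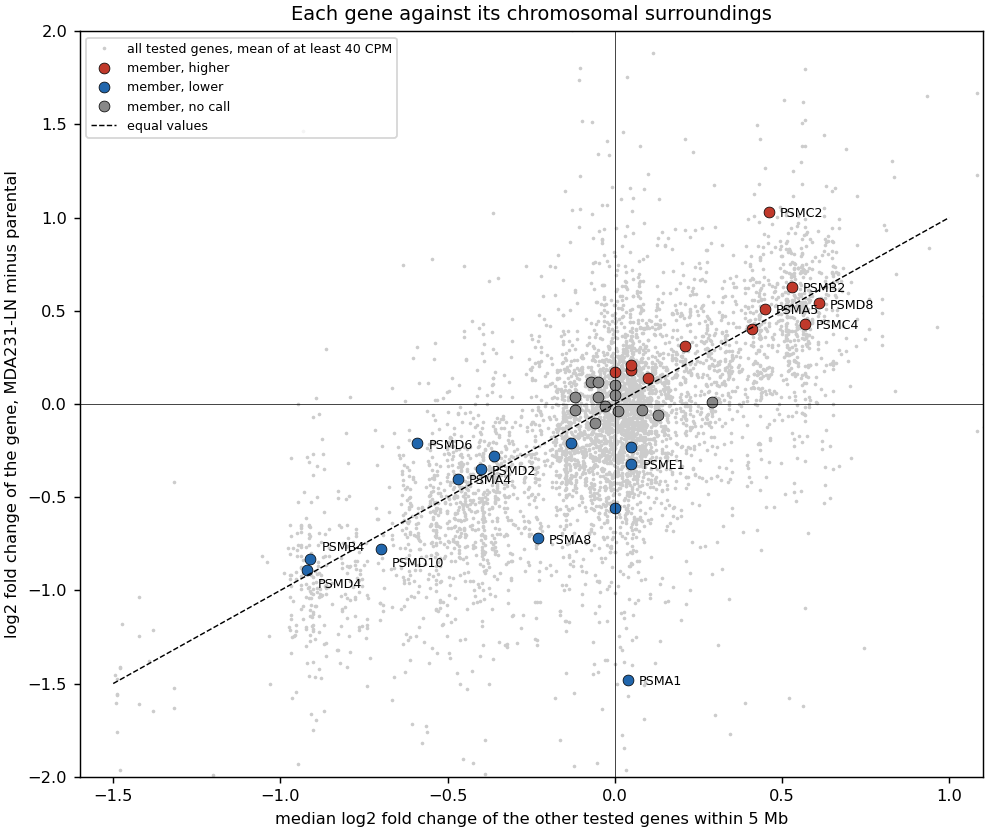
Log2 fold change of each gene (vertical) against the median log2 fold change of the other tested genes within 5 Mb (horizontal), for all tested genes at a mean of at least 40 CPM (grey) and the 37 proteasome members (coloured by call); the dashed line marks equal values. Most members follow the dashed line, and PSMA1, PSMA8 and PSME1 lie below it; 91 grey points beyond the axes are not drawn.

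The surrounding median was then subtracted from each gene's log2 fold change, and the remainder set against the gene's own SE with a t distribution, which takes the median as free of error. By this test 6 members were higher and 7 lower than their surroundings. These 13 make up 35.1% of the 37 members, against 53.8% of all 14154 tested genes with a window. At a mean of at least 40 CPM they were 10 of 32 members (31.2%), against 60.1%. Of the 24 members called between the lines 16 no longer passed. PSMB2 (0.10, adjusted p = 0.137), PSMA5 (0.05, 0.462), PSMD8 (-0.07, 0.321), PSMB4 (0.08, 0.297), PSMD4 (0.03, 0.746), PSMD10 (-0.08, 0.425) and PSMA4 (0.07, 0.307) were among them. The 13 that passed departed from their surroundings in both directions. PSME1 (-0.38, adjusted p = 5.7e-05) and PSME2 (-0.29, 0.00104) fell among genes with a median of 0.05, while PSMB5, 1112 kb from PSME1, rose. PSMA8 (-0.48, 0.0147) and PSMA1 (-1.52, 3.4e-07) lay below their surroundings, as did PSMB1 (-0.28, 0.000184), which had no call between the lines. PSMD6 (0.39, 5.8e-05), which fell by 0.21 on the log2 scale, lay above neighbours with a median of -0.59. The others above their surroundings were PSMA7 (0.19, 0.0171), PSMB7 (0.17, 0.0105), PSMD3 (0.17, 0.0159), PSMD12 (0.16, 0.0174) and PSMD13 (0.15, 0.0243), and the others below were PSMD7 (-0.19, 0.0211) and PSMB10 (-0.56, 0.0496). The part of such regional shifts in each gene's difference was not tested further.

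**Figure D4:**
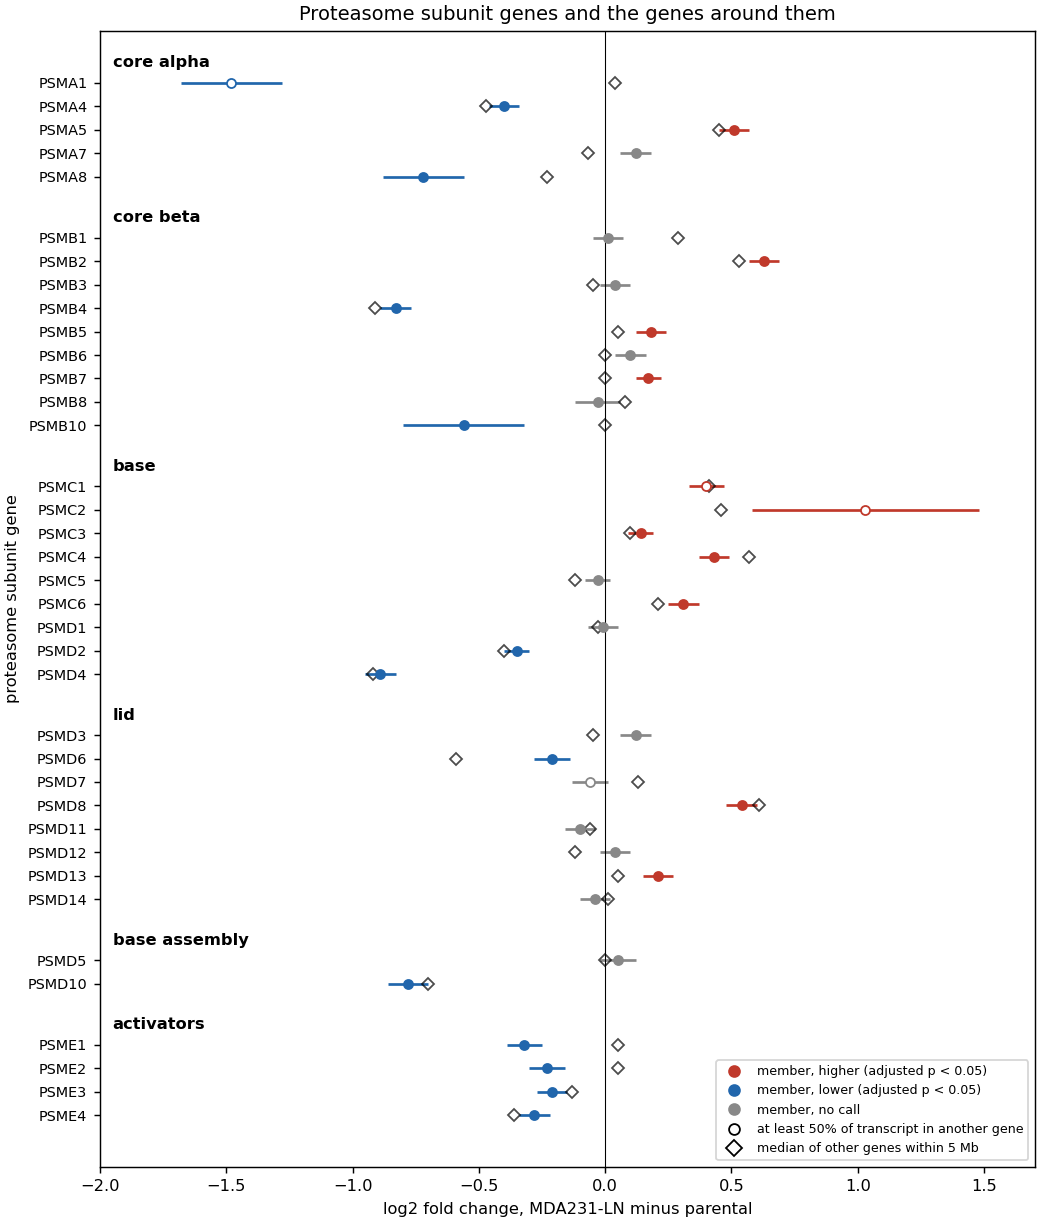
Log2 fold change (MDA231-LN minus parental) with its SE for the 37 tested proteasome genes by subcomplex (circles, red higher, blue lower, grey no call, open where at least 50% of the transcript lies inside another gene), and the median of the other tested genes within 5 Mb (diamonds). The diamonds lie close to circles such as PSMD4 (-0.89 and -0.92) and PSMB2 (0.63 and 0.53), and apart from others such as PSMA1, PSMA8, PSMD6, PSME1 and PSME2.

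Levels can be compared between genes only per length, and the 24 better measured genes of the constitutive core, base and lid were ranked by CPM per kilobase of the principal transcript. They spread widely: the highest was 12 ± 1.13 times the lowest in the parental libraries and 9.65 ± 0.228 times in MDA231-LN (SD, n = 3). PSMA7 ranked 1 in both lines, with 351 ± 42 and 381 ± 7.57 CPM per kilobase, and PSMD2 ranked 3 and 2, with 289 ± 14.6 and 227 ± 2.04. Both stayed among the first 3 with the shortest principal transcript or with all annotated exons as the length. PSMB4 went from rank 2 to rank 8 (295 ± 22.3 and 165 ± 4.25 CPM per kilobase) and PSMD4 from rank 8 to rank 16 (172 ± 13 and 92.4 ± 2.22), while PSMB2 went from rank 18 to rank 13 (72.6 ± 1.96 and 112 ± 5.49). Other ranks depend on the transcript chosen: PSMA4 ranked 22 in the parental line with the longest principal transcript and 5 with the shortest. PSMC3 and PSMB3, neighbours in this order (both 179 CPM per kilobase in the parental line), did not differ beyond their spread. The median over the 7 constitutive beta genes was 179 ± 6.95 CPM per kilobase in the parental line and 175 ± 2.1 in MDA231-LN. It was 125 ± 3.14 and 104 ± 6.29 over 7 base genes, and 72.3 ± 2.15 and 67.5 ± 2.19 over 7 lid genes. Over 3 alpha genes it was 52.6 ± 1.85 and 41.9 ± 0.785. Sums over the same genes went both ways: 1256 and 1226 for beta, 987 and 904 for base, 564 and 620 for lid, and 433 and 462 for alpha genes. All these levels are approximate, since the counts include introns and leave out fragments shared with other genes, while the length is that of the whole transcript. For PSMC5 36.2% and for PSMD6 32.4% of it lies inside another gene. The same limit holds for the shares per kilobase given above.

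Genes that work with the proteasome moved in both directions as well. Of 17 tested genes of other subunits, assembly factors and partners, 4 rose and 7 fell (64.7% called, against 62.8% of all tested genes), with a median log2 fold change of 0.00 against 0.02 for all tested genes. TXNL1, the gene of a thioredoxin-like protein bound to the proteasome, fell 2.22-fold (86.2 ± 5.28 to 38.9 ± 1.44 CPM), beside a surrounding median of -0.80. UBE3C, a ubiquitin ligase bound to the proteasome, rose 1.59-fold (190 ± 7.67 to 301 ± 4.17 CPM; surrounding median 0.46). PAAF1, an ATPase assembly factor, fell 1.90-fold (14.9 ± 0.886 to 7.85 ± 0.747 CPM; -1.43), and UCHL5, a deubiquitinase of the regulatory particle, 1.35-fold (87.6 ± 2.9 to 64.8 ± 2.27 CPM; 0.16). SEM1 and ADRM1, the genes of the remaining lid and ubiquitin receptor subunits, had no call (41.1 to 45.4 and 175 to 174 CPM).

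The list of regulators of proteasome gene transcription had 12 of 13 tested genes called (92.3%, against 62.8% of all tested genes), 5 higher and 7 lower, with a median of -0.21. NFE2L1, the gene of NRF1, fell 1.47-fold from 422 ± 11.3 to 287 ± 2.25 CPM (adjusted p = 4.8e-10, edgeR), among genes with a median of -0.07. SYVN1, the gene of a ubiquitin ligase that marks NRF1 for removal at the endoplasmic reticulum, fell 1.73-fold (112 ± 7.67 to 64.8 ± 4.46 CPM, surrounding median -0.01). STAT3 fell 1.34-fold (237 ± 3.72 to 177 ± 4.49 CPM, surrounding median -0.13). MAFK, a partner of NRF1 on DNA, fell 1.53-fold (62.8 ± 3.37 to 41.1 ± 5.53 CPM). Its log2 fold change of -0.61 was close to its surrounding median of -0.6. NGLY1 and DDI2, whose products activate NRF1, rose (41.1 to 48.3 CPM) and fell (40.8 to 33.7 CPM). NFYA could not be measured, since other genes cover 100% of its exons.

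On the interferon gamma route to the inducible subunits 2 of 7 tested genes rose and 0 fell (28.6% called, against 62.8% of all tested genes), with a median of 0.02. JAK1, the gene of a kinase bound to the receptor, rose 1.46-fold (120 ± 8.82 to 176 ± 5.04 CPM, surrounding median 0.61). The receptor gene IFNGR2 rose 1.29-fold (15.6 ± 2.05 to 20 ± 1.48 CPM, log2 fold change 0.36, surrounding median 0.10). NLRC5 (25.2 to 25.5 CPM), a regulator of antigen presentation genes, had no call, and IRF1 and SOCS1 lie wholly inside other genes and could not be measured.

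Of 6 tested genes of ubiquitin and its activating enzymes 3 rose and 2 fell (83.3% called, against 62.8% of all tested genes), with a median of 0.17. The polyubiquitin gene UBB (271 ± 13.4 to 405 ± 17.7 CPM) and the activating enzyme gene UBA1 (333 ± 2.68 to 481 ± 7.91 CPM) rose 1.5-fold and 1.45-fold. Their log2 fold changes of 0.58 and 0.53 lay above surrounding medians of 0.06 and 0.18. RPS27A, which encodes ubiquitin fused to a ribosomal protein, fell 1.15-fold (523 ± 49.5 to 453 ± 10.5 CPM, surrounding median -0.36). UBB and RPS27A share near-identical ubiquitin sequence, and reads that align equally well to several places were not counted.

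Of 12 tested ubiquitin shuttles and p97 partners 2 rose and 4 fell (50% called, against 62.8% of all tested genes), with a median of 0.04. UBQLN4 fell 1.96-fold (157 ± 1.31 to 80 ± 0.644 CPM, surrounding median -0.94). FAF2 fell 1.24-fold (log2 fold change -0.30, surrounding median -0.07), and FAF1 rose 1.45-fold (81.1 ± 5.36 to 118 ± 1.75 CPM, surrounding median 0.51). VCP, the gene of the p97 segregase itself, was at 409 and 425 CPM with no call. The COP9 signalosome, whose subunits are related to those of the lid, had 3 of 9 genes rising and 1 falling (44.4% called, against 62.8% of all tested genes), with a median of 0.05. COPS7A rose 1.40-fold (49.8 ± 2.73 to 69.8 ± 2.54 CPM, surrounding median 0.20), COPS2 1.14-fold (surrounding median 0.18) and COPS3 1.13-fold (0.06). COPS6 fell 1.19-fold (113 ± 5.52 to 94.5 ± 2.79 CPM) among genes with a median of 0.10. None of the 9 passed at 1.5-fold or more, against 35.7% of all tested genes and 25% of those at a mean of at least 40 CPM.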

How the data were processed

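The deposited table holds the authors' raw counts of fragments per gene. Per the file headers they come from featureCounts 2.0.1 and Ensembl 105 gene models of GRCh38. The settings in that header count whole gene bodies, introns included, without strand, and drop fragments shared by several genes or aligned to several places. Alignment was with STAR, per the submitters' processing notes, and its version is not given in the sources used here. Reads were paired, per the labels.

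Symbols were matched to 61369 genes (99.7%). The quasi-likelihood test of edgeR 4.0.16 (R 4.3.3) was run on 1 fit of all 6 libraries, with TMM scaling and the filterByExpr filter and Benjamini-Hochberg adjustment over 14176 genes. The SE of a log2 fold change is its size over the square root of the F statistic. DESeq2 1.42.0, limma-voom (limma 3.58.1), other scalings and filters, a 1.2-fold threshold, left-out libraries, the replicate number as a block and subtraction of window medians were alternatives. The procedure was tested on simulated data in which few genes changed, unlike here, so that test cannot show how the counts depend on scaling. Exons, principal (APPRIS) transcripts and overlaps came from GENCODE 29, also GRCh38, the longest principal transcript giving the length. Promoters came from RefSeq (GRCh38.p14), and 34 of 37 starts were found in GENCODE transcripts in the same orientation. The members and lists were chosen with earlier results of these data known. All members may be named, and from each other list up to 4 genes with the smallest adjusted p, while SEM1, ADRM1, NGLY1, DDI2, NLRC5 and VCP were named outside that rule after their values were seen. Some genes of these lists are counted but not reported here by name. Tables were joined with pandas 2.3.3 and numpy 2.4.6 under Python 3.11.15, correlations computed with scipy 1.17.1, and plots drawn with matplotlib 3.10.9.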

Additional observations from a re-analysis of the deposited data

How the results depend on the processing

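As reported, 11 members rose and 13 fell. With glmTreat against 1.2-fold 5 rose and 7 fell, with upper-quartile scaling 18 rose (9 fell), and with window medians subtracted 6 were higher and 7 lower; glmTreat asks for a larger difference by its construction, and for the others the cause was not tested. Leaving out 1 library in turn gave 9 to 13 members higher and 10 to 14 lower. RLE scaling, no filter, 1 CPM in 3 libraries, DESeq2, limma-voom, an adjusted p under 0.01 and leaving out genes over 50% overlapped kept both counts within 1.5 times. Whether the replicate numbers pair the samples cannot be told from the labels or from these few libraries. After the mean of each line was taken off, the correlations of same-numbered libraries were -0.004, 0.002 and -0.053. Those of differently numbered libraries ran from -0.044 to 0.046. With the replicate number as a block 10 members rose and 12 fell. Over the 13 refits (scalings, filters, tools, the block and left-out libraries) 17 of the 37 tested members kept their direction and side of the threshold, and 20 changed in at least 1. Window subtraction is not among these: with it 16 of the 24 called members lost their call and 9 turned sign (PSMA4, PSMB4, PSMC1, PSMC4, PSMD2, PSMD4, PSMD6, PSMD8 and PSME4). In the refits the sign turned in 7, all without a call as reported: PSMB1 (-0.01 to 0.06 over the left-out libraries), PSMB8 (-0.11 to 0.04 over the left-out libraries, 0.0 without parental replicate 1, 0.08 with upper-quartile scaling), PSMD1 (-0.06 to 0.02 over the left-out libraries, 0.0 with 1 CPM in 3 libraries, DESeq2 or RLE scaling, 0.1 with upper-quartile scaling) and, with upper-quartile scaling, PSMC5 (0.08), PSMD7 (0.05), PSMD11 (0.02) and PSMD14 (0.07). Chosen after seeing the data, windows of 2 and 4 Mb gave an r of 0.69 and 0.75 between members and their surroundings, against 0.73, and leaving out 1 library in turn 0.71 to 0.76. Depth limits PSMC2 and PSMB10 most, and overlap with other genes limits PSMA1, PSMC1 and PSMD7.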
